A study of Mus musculus with 7 samples.

Results

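The genes examined here write, copy and remove DNA methylation, or belong to the Polycomb complexes, and they were followed in skin papillomas of mice with and without induced *Nanog*. The 10 genes were chosen by name from 23284 gene symbols: the DNA methyltransferases *Dnmt1*, *Dnmt3a* and *Dnmt3b*, the DNMT1 partner *Uhrf1*, the dioxygenases *Tet1*, *Tet2* and *Tet3*, and the Polycomb genes *Ezh2*, *Suz12* and *Bmi1*. In short, none of these genes was called as different between the groups, but neither was any of the 12299 genes tested. The 7 that could be tested differed between the group means by at most 0.23 on the log2 scale. *Tet1*, close to the limit of detection, was the single gene of the 10 whose groups did not overlap. Among genes at a similarly low level with a value in all 7 papillomas, 8.27% had every TG value above every CTR value.

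RNA-seq was performed on papillomas of 4 control (CTR) and 3 transgenic (TG) mice, 1 papilloma and 1 library per mouse, all of C57Bl/6 background, age-matched young adults when treatment began. Mice of both groups carried the *tetO-Nanog* allele, a *Nanog* transgene at the *Col1a1* locus that is silent until rtTA and doxycycline are both present. TG mice also carried *K5-rtTA*, where the bovine keratin 5 promoter drives the transactivator in the basal layer of stratified epithelia, and CTR mice lacked it. All 7 mice drank doxycycline (2 mg/ml) while the carcinogen DMBA and then the tumor promoter TPA were applied to the back skin, and papillomas were taken when the protocol ended or at the humane endpoint. The samples are therefore whole tumors, and a change in cell composition cannot be told apart from a change in RNA per cell.

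DNA methylation is written on cytosines followed by guanine (CpG). DNMT3A and DNMT3B set it on unmethylated DNA, while UHRF1 recognizes the half-methylated DNA left by replication and brings DNMT1 to copy the mark onto the new strand. TET proteins oxidize methylated cytosine, a first step towards its removal. Polycomb repressive complex 2 (PRC2), with EZH2 as its methyltransferase and SUZ12 as a core subunit, methylates histone H3, and PRC1, to which BMI1 belongs, ubiquitinates histone H2A. In epidermis, DNMT1, UHRF1 and the Polycomb proteins are known to keep progenitor cells dividing and to hold back differentiation and senescence genes such as *Cdkn2a*.

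The values are FPKM, that is fragments scaled to transcript length and to the mapped fragments of the library, as estimated by Cufflinks for each papilloma. *Nanog* was listed at 2.70, 2.84, 12.7 and 3.34 FPKM in CTR 1 to CTR 4 and at 36.9, 57.4 and 66.9 FPKM in TG 1 to TG 3, so each library matched its label. Depth was not given in the files, and the width of the Cufflinks intervals implied between 10074859 and 15710562 reads on genes, with CTR 3 and TG 1 the deeper libraries. Basal keratinocyte markers (6 genes, among them *Krt5* and *Krt14*) summed to between 6632 and 12954 FPKM, so the epidermal label held in every papilloma. TG 3 stood apart. The median over all symbols was 1.04 FPKM in TG 3 and between 0.481 and 0.596 FPKM in the others. The summed level of 7 skeletal muscle markers was 668 FPKM in TG 3 and between 1.499 and 4.86 FPKM elsewhere, all 7 being highest there. Fibroblast markers (6 of 6 highest in TG 3) summed to 678 FPKM there and 73.5 to 129 FPKM elsewhere. The 4 differentiated keratinocyte markers present summed to 716 FPKM in TG 3 against 2276 to 3336 FPKM in CTR. In TG 1 and TG 2 they summed to 6155 and 7240 FPKM, above every CTR papilloma. Leukocyte markers (7 of 8 highest in TG 3) reached 33.7 FPKM against 5.47 to 8.99, and endothelial markers (4 of 5) 25.8 FPKM against 6.70 to 17.4. Adipocyte markers (4 of 5 highest in TG 3) summed to 1686 FPKM there and to 1374 to 3228 FPKM elsewhere. Differences without TG 3 are therefore given beside those of all papillomas for the tested regulators, the lists and most other named genes.

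Promoter sequences of the 10 genes were searched for the letters that E2F proteins, the transcription factors of the G1 to S phase transition, are known to bind. The letters searched were TTTCCCGC, TTTCGCGC, TTTGCCGC and TTTGGCGC, and the box CCAAT, on both strands, in the RefSeq windows of 250 bases before to 50 bases after each start site (build GRCm38.p6). RefSeq gave 15 windows for 10 of 10 genes. The E2F letters occurred in 4 of the 15 windows, 1 each of *Uhrf1*, *Dnmt1*, *Ezh2* and *Suz12*, and each of these 4 windows also held CCAAT, as did 7 of the 15 in all. Among all 32851 mouse windows, 2.26% held the E2F letters, 37.4% held CCAAT and 0.962% held both. These 4 windows are shown because they held the E2F letters, and all 10 genes are compared with S phase genes further on. The stretches run from 230 bases before to 20 bases after the start, 5′ to 3′ on the strand of the gene, with complete matches in capitals.
Uhrf1, chr17:56304083-56304332 (+): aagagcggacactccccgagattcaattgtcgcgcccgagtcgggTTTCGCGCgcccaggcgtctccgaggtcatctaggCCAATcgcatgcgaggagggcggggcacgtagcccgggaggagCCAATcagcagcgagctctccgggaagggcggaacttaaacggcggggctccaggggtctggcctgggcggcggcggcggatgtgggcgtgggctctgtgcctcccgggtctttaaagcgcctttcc
Dnmt1, chr9:20952604-20952853 (-): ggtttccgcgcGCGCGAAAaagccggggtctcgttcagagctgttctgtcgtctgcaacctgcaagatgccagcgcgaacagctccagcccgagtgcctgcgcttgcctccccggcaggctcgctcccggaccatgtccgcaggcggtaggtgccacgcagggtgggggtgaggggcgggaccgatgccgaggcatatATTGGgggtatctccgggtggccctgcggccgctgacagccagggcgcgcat
Ezh2, chr6:47595011-47595260 (-): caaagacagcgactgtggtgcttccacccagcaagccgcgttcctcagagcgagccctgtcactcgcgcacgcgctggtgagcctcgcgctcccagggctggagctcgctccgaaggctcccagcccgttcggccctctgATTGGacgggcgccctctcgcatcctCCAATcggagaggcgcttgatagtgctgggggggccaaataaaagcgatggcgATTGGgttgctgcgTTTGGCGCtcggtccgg
Suz12, chr11:79992876-79993125 (+): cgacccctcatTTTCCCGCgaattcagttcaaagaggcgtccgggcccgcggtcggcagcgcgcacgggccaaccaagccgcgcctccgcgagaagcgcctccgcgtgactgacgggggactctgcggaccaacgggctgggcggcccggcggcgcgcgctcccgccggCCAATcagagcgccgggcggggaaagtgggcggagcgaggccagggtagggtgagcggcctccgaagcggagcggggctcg
In *Uhrf1* the E2F letters began 185 bases before the start, upstream of 2 CCAAT boxes. In *Dnmt1* and *Suz12* they began 219 bases before the start, and in *Ezh2* at base 4 after it, just downstream of 3 CCAAT boxes. This *Dnmt1* window held 2 matches, the other beginning at base 34 after the start, beyond the stretch shown. In each case the start is that of the window shown. RefSeq also placed windows for *Uhrf1* and *Dnmt1* upstream of these stretches, and those held no E2F letters. For these genes the letters thus lie downstream of another annotated start. A match shows letters in a window and not a bound site. A CpG content of at least 0.6 of that computed from its base composition was found in 10 of the 15, against 35.8% of all windows, and *Tet3*, at 0.576, was the gene without one.

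Levels differed widely among the 10 genes and kept nearly the same order in both groups. By mean log2(FPKM + 0.5), the order was *Dnmt1*, *Suz12*, *Uhrf1*, *Tet3*, *Ezh2*, *Bmi1*, *Tet2*, *Dnmt3a*, *Dnmt3b* and *Tet1*. Neighbors among the first 6 genes were not well separated. *Dnmt1* and *Suz12* differed by 0.05 ± 0.19 on that log2 scale (mean ± SD within papillomas, n = 6, without the failed *Dnmt1* estimate described below), *Suz12* and *Uhrf1* by 0.26 ± 0.28 (n = 7), *Uhrf1* and *Tet3* by 0.21 ± 0.25, and *Ezh2* and *Bmi1* by 0.09 ± 0.15. *Tet3* exceeded *Ezh2* in 6 of 7 papillomas, by 0.22 ± 0.20. From *Bmi1* downwards the steps were larger than their spread and had the same direction in 7 of 7 papillomas, with 0.95 ± 0.28 to *Tet2*, 0.66 ± 0.25 to *Dnmt3a*, 1.22 ± 0.17 to *Dnmt3b* and 0.79 ± 0.17 to *Tet1*. Transcripts of *Dnmt3b* and *Tet1* were thus the scarce ones, while the 6 most abundant genes included members of every group examined here except the de novo methyltransferases.

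**Figure D1:**
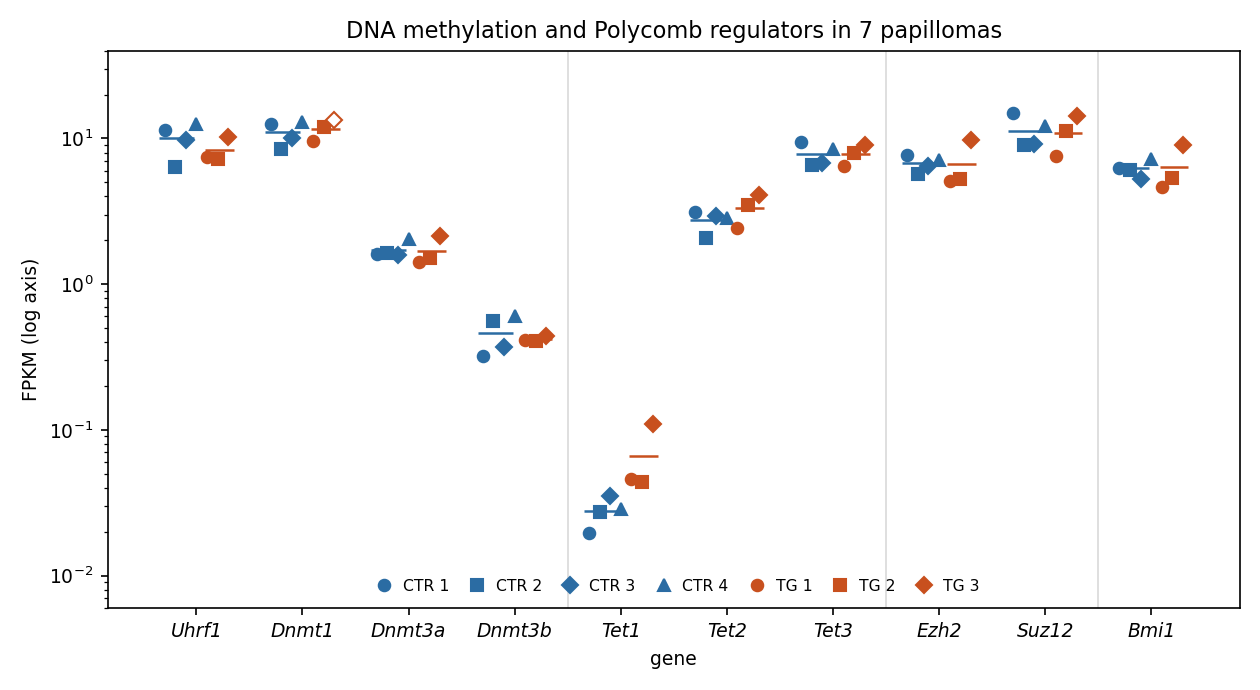
FPKM (log axis) of the 10 genes in each of the 7 papillomas, CTR in blue and TG in orange, with a horizontal bar at each group mean and an open symbol for the failed *Dnmt1* estimate of TG 3. The ranges of the groups overlap for every gene except *Tet1*, where the 3 TG values lie between 0.0437 and 0.110 FPKM and the 4 CTR values between 0.0195 and 0.0352 FPKM. Of genes with a mean between 0.02 and 0.1 FPKM and a value above 0 in all 7 papillomas, 8.27% have every TG value above every CTR value.

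The groups were compared with limma on log2(FPKM + 0.5), over genes whose mean reached 0.5 FPKM, with Benjamini-Hochberg adjustment and a threshold of 0.05. In all, 12299 genes were tested. 0 genes (0%) were called higher and 0 genes (0%) lower in TG, and at an unadjusted p below 0.05 the counts were 598 genes higher (4.86%) and 241 lower (1.96%). Of the 10 regulators, 7 were tested. *Dnmt1* was left out because Cufflinks marked its estimate in TG 3 as failed, and *Dnmt3b* and *Tet1* were below the minimum. 0 of the 7 passed the adjusted or the unadjusted threshold, and in 0 of the 7 were the groups separated, against 4.93% of all tested genes with every TG value above every CTR value and 2.23% with every TG value below. Each gene was also compared by an exact two-sided permutation test over the 35 splits into 4 and 3 papillomas, whose smallest possible p is 0.0286.

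*Dnmt1* (chr9:20907206-20959888, minus strand, GRCm38), which copies methylation after replication, was listed at 12.6, 8.46, 10.1 and 12.9 FPKM in CTR 1 to CTR 4, and at 9.58 and 12.1 FPKM in TG 1 and TG 2. The TG 3 entry read 13.3 FPKM with the failed status and an interval from 0 to 20.7 FPKM. The TG values lay inside the CTR range, apart from that failed entry. Without it the means were 11.03 ± 2.11 FPKM (SD, n = 4) in CTR and 10.8 ± 1.76 FPKM (SD, n = 2) in TG, a log2 difference of -0.01 (exact permutation p = 1, smallest possible 0.0667). With it the difference was 0.08 (exact permutation p = 0.714).

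*Uhrf1* (chr17:56303337-56323486, plus strand), whose product recruits DNMT1 to half-methylated DNA, was present at 11.4, 6.33, 9.81 and 12.5 FPKM in CTR and at 7.45, 7.24 and 10.2 FPKM in TG. The lowest value of all was CTR 2, and the 3 TG values fell within the CTR range. The means were 10.02 ± 2.70 FPKM (SD, n = 4) and 8.28 ± 1.64 FPKM (SD, n = 3). The log2 difference of -0.23 ± 0.25 (SE) had the largest size among the 7 tested regulators, but its interval ran from -0.79 to 0.32 (limma adjusted p = 0.912, unadjusted p = 0.366). TG was lower in 8 of 12 pairs of papillomas. Without TG 3 the difference was -0.38, and under sample quality weights it was -0.50 (limma unadjusted p = 0.0248, adjusted p = 0.189). These weights were 0.562, 3.11 and 0.272 for TG 1 to TG 3, so TG 2 counted most in the TG group. For CTR 1 to CTR 4 they were 1.02, 0.569, 1.54 and 2.33. At that unadjusted threshold the weights gave 9.44% of tested genes as higher and 10.1% as lower, and over the 22 settings tried the adjusted p for *Uhrf1* lay between 0.189 and 1.00.

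*Dnmt3a* (chr12:3806980-3914443, plus strand) and *Dnmt3b* (chr2:153649454-153687730, plus strand) encode the de novo methyltransferases. *Dnmt3a* was listed at 1.60, 1.64, 1.59 and 2.03 FPKM in CTR and at 1.41, 1.52 and 2.14 FPKM in TG. TG 1 and TG 2 were the lowest papillomas for this gene and TG 3 the highest. The means, 1.71 ± 0.211 FPKM (SD, n = 4) and 1.69 ± 0.395 FPKM (SD, n = 3), were nearly equal, with a log2 difference of -0.02 ± 0.20 (SE, limma adjusted p = 0.994) and an interval from -0.48 to 0.43. Without TG 3 it was -0.17. *Dnmt3b* was listed at 0.321, 0.558, 0.373 and 0.601 FPKM in CTR and at 0.412, 0.408 and 0.438 FPKM in TG. The TG values clustered in the middle of the wider CTR range. The means were 0.463 ± 0.137 FPKM (SD, n = 4) and 0.419 ± 0.0167 FPKM (SD, n = 3), and the log2 difference was -0.06 (exact permutation p = 0.629). The annotation places antisense transcripts within both genes, *Dnmt3aos* and *Dnmt3bos*. Libraries were stranded, but whether Cufflinks used the strand is not given in the sources used here, so part of these values may come from the opposite strand. A pseudogene named after *Dnmt3a* (*Dnmt3a-ps1*) is also annotated, and reads could be shared with it.

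Among the TET genes, *Tet3* (chr6:83362374-83441678, minus strand) was the most abundant, *Tet2* (chr3:133463677-133544390, minus strand) intermediate and *Tet1* (chr10:62804570-62880014, minus strand) almost absent. *Tet3* was present at 9.39, 6.60, 6.83 and 8.41 FPKM in CTR and at 6.51, 7.89 and 9.05 FPKM in TG. The groups overlapped almost completely and had means of 7.81 ± 1.33 FPKM (SD, n = 4) and 7.82 ± 1.27 FPKM (SD, n = 3). The log2 difference was 0.00 ± 0.19 (SE, limma adjusted p = 0.998), with an interval from -0.42 to 0.43, and it was -0.10 without TG 3. *Tet2* was listed at 3.15, 2.06, 2.94 and 2.84 FPKM in CTR and at 2.44, 3.51 and 4.09 FPKM in TG. TG 2 and TG 3 were above all CTR values while TG 1 was below all but CTR 2. The means were 2.75 ± 0.474 FPKM (SD, n = 4) and 3.34 ± 0.835 FPKM (SD, n = 3), and the log2 difference of 0.23 ± 0.22 (SE) had an interval from -0.26 to 0.73 (limma adjusted p = 0.892). Without TG 3 it was 0.09.

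*Tet1* was listed at 0.0195, 0.0274, 0.0352 and 0.0285 FPKM in CTR and at 0.0460, 0.0437 and 0.110 FPKM in TG. All 3 TG values exceeded all 4 CTR values. These values stand for an implied 3, 5, 9 and 4 reads in CTR and 12, 8 and 20 reads in TG. The Cufflinks 95% interval of TG 3 (0.0615 to 0.159 FPKM) lay above that of CTR 3 (up to 0.0588 FPKM), whereas those of TG 1 (from 0.0191 FPKM) and TG 2 (from 0.0126 FPKM) overlapped the CTR intervals. The means were 0.0276 ± 0.00641 FPKM (SD, n = 4) and 0.0666 ± 0.0378 FPKM (SD, n = 3), a ratio of 2.41, or 1.62 without TG 3, and TG 1 and TG 2 alone still exceeded all CTR papillomas. The exact permutation p of 0.0286 is the smallest that 4 against 3 papillomas can give, and it is 1 of 10 such tests. When limma was run without the minimum, the log2 difference was 0.10 and did not pass (adjusted p = 0.870). Among genes with a mean between 0.02 and 0.1 FPKM and a value above 0 in all 7 papillomas, 8.27% had every TG value above every CTR value, as did 8.34% of all such genes below the minimum. The entry in the files also ends 29.0 kb short of the *Tet1* gene in GENCODE, on the side of its start, so reads there were outside the measured locus. For *Tet3* the entry ends 17.4 kb short on the same side. The annotated gene *Gm48353* overlaps the *Tet1* entry on the same strand, so reads could be shared with it.

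The PRC2 genes were moderately expressed in both groups. *Ezh2* (chr6:47530274-47595030, minus strand) was present at 7.70, 5.71, 6.48 and 7.06 FPKM in CTR and at 5.09, 5.27 and 9.80 FPKM in TG. TG 1 and TG 2 were below all CTR papillomas and TG 3 was above them. The means were 6.74 ± 0.849 FPKM (SD, n = 4) and 6.72 ± 2.67 FPKM (SD, n = 3), with a log2 difference of -0.06 ± 0.24 (SE, limma adjusted p = 0.987) and an interval from -0.60 to 0.49. Without TG 3 the difference was -0.34 (limma unadjusted p = 0.0970). *Suz12* (chr11:79993106-80034123, plus strand) was listed at 14.9, 9.01, 9.19 and 12.2 FPKM in CTR and at 7.57, 11.2 and 14.2 FPKM in TG. TG 1 was the lowest papilloma and CTR 1 the highest, and the other values were mixed. The means were 11.3 ± 2.78 FPKM (SD, n = 4) and 10.98 ± 3.30 FPKM (SD, n = 3), and the log2 difference was -0.06 ± 0.25 (SE, limma adjusted p = 0.988) with an interval from -0.63 to 0.52, and it was -0.25 without TG 3. Antisense genes are annotated within *Ezh2* (*Gm26625*, *Gm44282*) and *Suz12* (*Gm26563*), with the same limit on strand.

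*Bmi1* (chr2:18677018-18686629, plus strand), the PRC1 member that restrains the *Cdkn2a* locus, was present at 6.26, 6.11, 5.24 and 7.27 FPKM in CTR and at 4.64, 5.36 and 9.06 FPKM in TG. As for *Ezh2*, TG 3 was highest and TG 1 lowest. The means were 6.22 ± 0.832 FPKM (SD, n = 4) and 6.35 ± 2.37 FPKM (SD, n = 3), with a log2 difference of -0.02 ± 0.23 (SE, limma adjusted p = 0.995) and an interval from -0.55 to 0.51. Without TG 3 it was -0.28. For *Ezh2* and *Bmi1* the SD among TG papillomas was thus well above that among CTR papillomas, with TG 3 far from the other TG values in both.

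**Figure D2:**
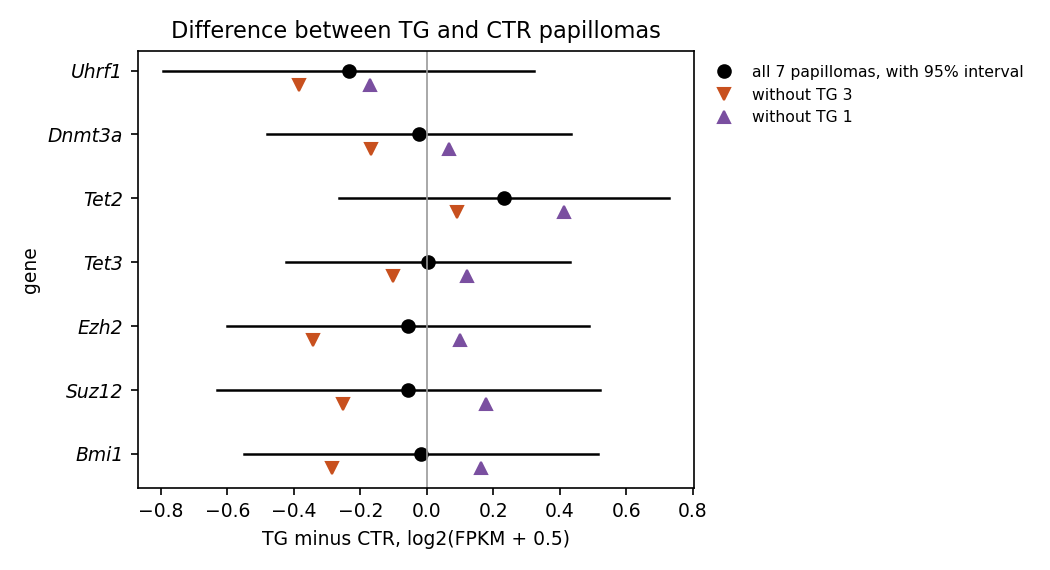
Log2 difference between TG and CTR papillomas for the 7 regulators tested, with its 95% interval from limma (black), and the same difference without TG 3 (orange) or without TG 1 (purple). All 7 intervals include 0, and leaving out TG 3 lowers and leaving out TG 1 raises each difference, for *Bmi1* to -0.28 and 0.16.

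The regulators also varied among papillomas of the same group. Among the 4 CTR papillomas the coefficient of variation was between 12.3% (*Dnmt3a*) and 29.6% (*Dnmt3b*). The coefficient of variation implied by counting error alone was averaged over all 7 papillomas, so it does not cover the same samples. It was 39.2% for *Tet1* (observed in CTR 23.2%) and 17.9% for *Dnmt3b*. It was 2.64% for *Tet3* (observed in CTR 17.03%), 3.36% for *Suz12* (24.6%) and 4.13% for *Uhrf1* (26.9%). The highest value was found in TG 3 for 5 of the 10 genes, in CTR 4 for 3 and in CTR 1 for 2, and the lowest in TG 1 for 5, in CTR 2 for 3 and in CTR 1 for 2 (*Dnmt1* counted without its failed entry). The TG group therefore held both the papilloma most often highest and the one most often lowest.

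Part of this ordering was shared by all genes. The median of the 7 tested regulators around their own means was 0.36 (log2) in TG 3, where the median over all tested genes was 0.21, and it was -0.22 in CTR 2, where that over all genes was -0.17. In TG 1 the regulators were at -0.26 and all genes at -0.07. In CTR 1 the regulators were at 0.21 and all genes at 0.03. After scaling each library to its upper quartile, TG 3 was highest for 3 of 9 genes (*Dnmt1* left out) and TG 1 still lowest for 5. The skeletal muscle, fibroblast and leukocyte markers were high in TG 3 only. In TG 1 they summed to 2.16, 88.9 and 6.71 FPKM, each within the range of the CTR papillomas, as were adipocyte markers (1545 FPKM). Other markers in TG 1 were above every CTR papilloma. These were basal keratinocyte (12954 against at most 9899 FPKM), differentiated keratinocyte (6155 against 3336 FPKM) and endothelial markers (17.4 against 12.4 FPKM). The part of any of these cell types in the values of the regulators was not tested.

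**Figure D3:**
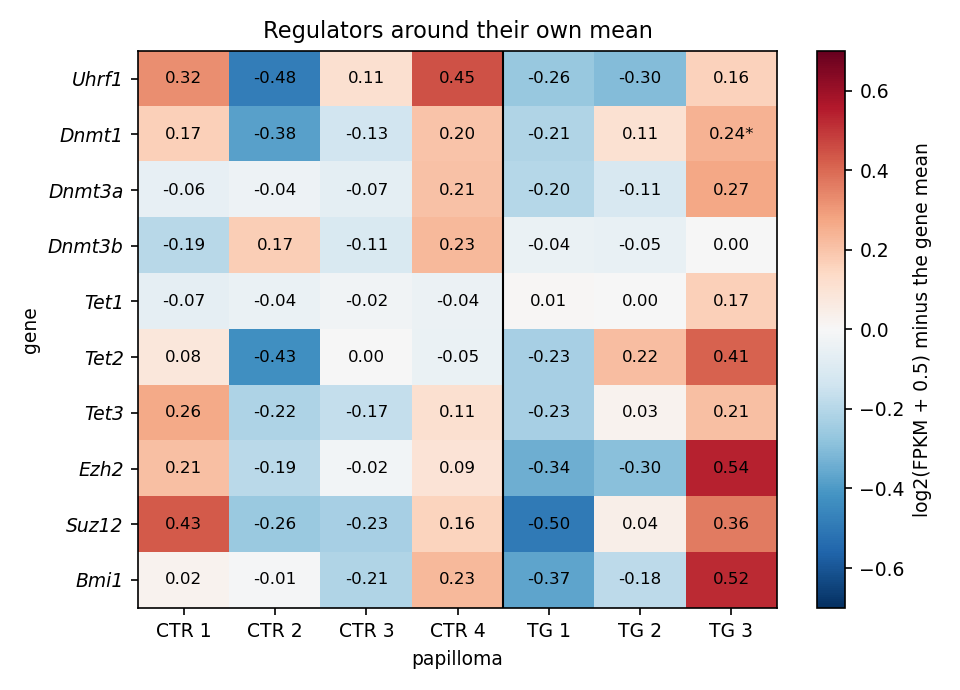
Log2(FPKM + 0.5) of each regulator minus its mean over the 7 papillomas, red above and blue below the mean, with the value in each cell and an asterisk on the failed *Dnmt1* estimate. TG 3 is above the mean for 9 genes and at 0.00 for *Dnmt3b*, whereas TG 1 is below the mean for 9 genes, with 0.01 for *Tet1*.

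The tested regulators were positively correlated with each other across papillomas. The 21 pairs of the 7 tested genes had Pearson correlations between 0.466 and 0.983, with a median of 0.709. Without TG 3 the lowest was 0.0231 (*Dnmt3a* with *Tet2*) and the median 0.634. The median over all pairs of tested genes was 0.14 with all 7 papillomas, and it was not computed without TG 3. These points share library scaling and the position of TG 3, and no test was made. The closest pair was *Tet3* and *Suz12* (r = 0.983, Spearman rho = 1, and r = 0.978 without TG 3), followed by *Dnmt3a* and *Bmi1* (r = 0.956, and 0.917 without TG 3). Pairs with *Tet1* or *Dnmt3b* ranged from -0.404 to 0.639, with a median of 0.0276. The genes most like 3 of the regulators over the papillomas were also listed. For *Dnmt1* (n = 6) these were *AA987161* (r = 0.993), *Cdc42bpa* (r = 0.992) and *Sipa1l2* (r = 0.991), for *Tet2* (n = 7) *Cdc37l1* (r = 0.994), *Gpatch2* (r = 0.988) and *Nktr* (r = 0.987), and for *Ezh2* (n = 7) *Plekhh1* (r = 0.993), *1810048J11Rik* (r = 0.993) and *Rock2* (r = 0.992). With so few papillomas such values are common, since 204, 98 and 113 genes had r above 0.95 with *Dnmt1*, *Tet2* and *Ezh2*.

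Ratios of paralogs and partners within a papilloma do not depend on library scaling, apart from the pseudocount of 0.5, and 5 were compared. The ratio of *Uhrf1* to *Dnmt1* was -0.13, -0.39, -0.04 and -0.04 (log2) in CTR, and -0.34 and -0.70 in TG 1 and TG 2. It was lower in TG in 7 of 8 pairs, by 0.37 on the log2 scale on average (exact permutation p = 0.133, smallest possible 0.0667, adjusted over the 5 ratios 0.333), but by 0.19 without TG 2. The ratio of *Tet3* to *Tet2* was 1.44, 1.47, 1.09 and 1.42 in CTR and 1.25, 1.07 and 1.06 in TG, and TG was lower in 11 of 12 pairs, with a mean difference of -0.23 (exact permutation p = 0.114, adjusted 0.333), or -0.19 without TG 3. The ratio of *Ezh2* to its paralog *Ezh1* was 0.60, 0.40, 0.33 and 0.56 in CTR and 0.35, 0.07 and 0.41 in TG, a difference of -0.20 (exact permutation p = 0.229, adjusted 0.381), which was -0.26 without TG 3 and -0.094 without TG 2. *Dnmt3b* to *Dnmt3a* differed by -0.03 (exact permutation p = 0.8). *Bmi1* to its paralog *Pcgf2* differed by -0.19 (exact permutation p = 0.657), but ranged from -0.01 in TG 1 to 1.54 in TG 3. None of the 5 ratios passed the threshold.

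Since *Uhrf1*, *Dnmt1* and *Ezh2* are known as genes of dividing cells, the regulators were set against 17 S phase and mitosis genes, summarized for each papilloma as the mean of their centered log2 values. This score was 0.40, -0.38, 0.13 and 0.21 in CTR and -0.10, -0.40 and 0.13 in TG. CTR 2 and TG 2 had the lowest scores and CTR 1 the highest. *Uhrf1* followed the score closely (r = 0.926, exact permutation p = 0.00556, rho = 0.893, exact permutation p = 0.0123, n = 7). Its r exceeded that of 99.2% of tested genes, though the adjusted p over all tested genes was 0.368. It was 0.855 without CTR 2 and TG 2, the papillomas farthest from the median, 0.923 without TG 3, and 0.941 without the deeper libraries CTR 3 and TG 1 (n = 5, exact permutation p = 0.05). *Ezh2* came next (r = 0.699, exact permutation p = 0.0829, rho = 0.679, exact permutation p = 0.110), with 0.572 without CTR 2 and TG 2, and 0.871 without TG 3. *Dnmt1* (n = 6) had r = 0.545 (exact permutation p = 0.235, rho = 0.6, exact permutation p = 0.242), and 0.844 without CTR 2 and TG 2. The others were at 0.610 (*Tet3*), 0.570 (*Suz12*), 0.403 (*Dnmt3a*), 0.389 (*Bmi1*), 0.348 (*Tet2*), 0.00 (*Tet1*) and -0.31 (*Dnmt3b*), against a median of 0.259 over all tested genes. Without CTR 2 and TG 2 the order was another, with *Suz12* at 0.832 and *Tet3* at 0.798, both above *Ezh2*. With the group means removed from both measures and pairings permuted within groups, an alternative chosen after seeing the data, r was 0.914 for *Uhrf1* (exact permutation p = 0.0278), 0.720 for *Ezh2* (exact permutation p = 0.0486) and between -0.42 and 0.66 for the other 8, none of which passed.

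**Figure D4:**
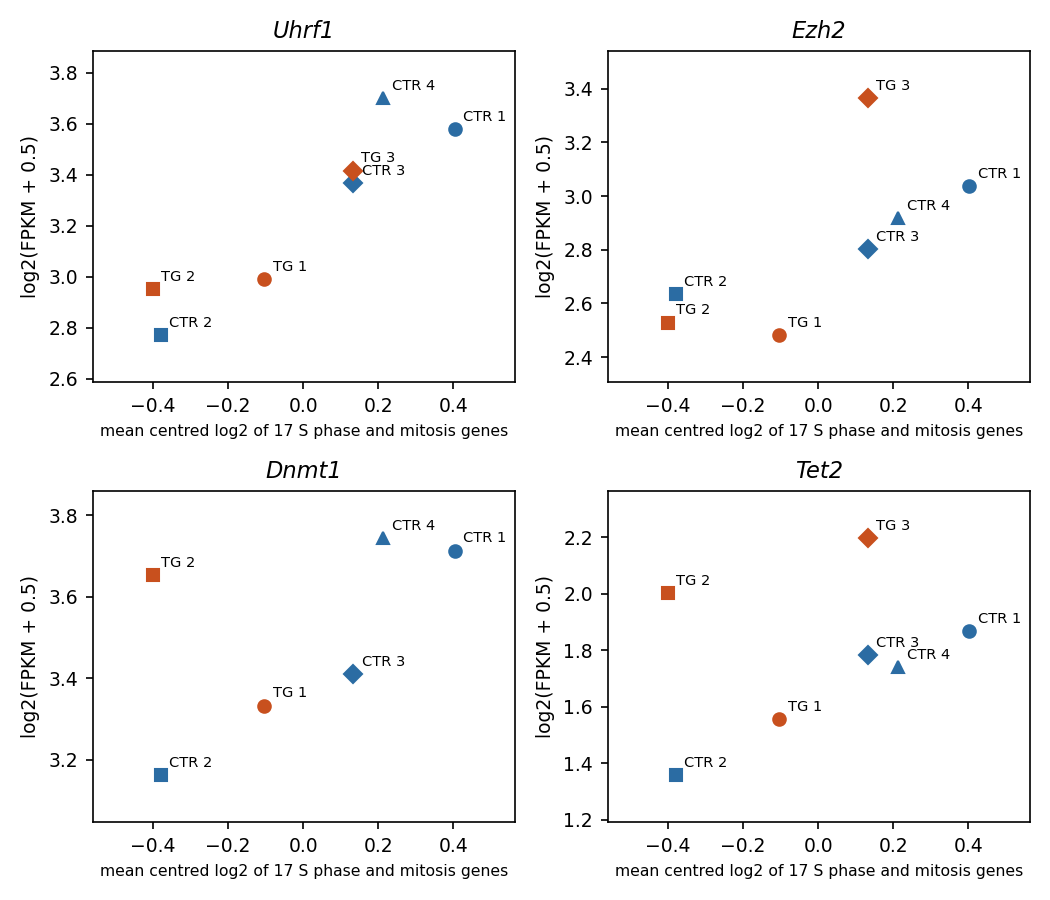
Log2(FPKM + 0.5) of *Uhrf1*, *Ezh2*, *Dnmt1* and *Tet2* against the mean centered log2 of 17 S phase and mitosis genes, 1 point per papilloma (CTR blue, TG orange; TG 3 is missing for *Dnmt1*). *Uhrf1* follows the score (r = 0.926), TG 3 lies above the other points for *Ezh2*, and TG 2 lies apart for *Dnmt1*.

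Further genes of these pathways were examined as lists, and 0 genes of any list were called. Of 12 partners of DNA methylation, 11 were tested, 3 of them with a positive difference. The median log2 difference was -0.08 against 0.06 over all tested genes (-0.17 against -0.03 without TG 3). Of these partners 0 passed the unadjusted threshold (1, *Dnmt3l*, without TG 3). The share of all tested genes past that threshold without TG 3 was not computed, for this list or those below. *Pcna*, the sliding clamp that links replication to the maintenance machinery, was at 52.4 ± 5.60 FPKM (SD, n = 4) in CTR and 43.2 ± 3.87 FPKM (SD, n = 3) in TG (log2 difference -0.27, limma adjusted p = 0.826). *Hells*, a remodeler needed for methylation of repeats, was at 6.74 ± 1.88 and 4.998 ± 1.53 FPKM (-0.40, limma adjusted p = 0.842). *Dnmt3l*, the inactive cofactor of DNMT3A and DNMT3B, stood out by its values. It was listed at 1.41, 1.38, 1.36 and 1.48 FPKM in CTR and at 6.54, 3.40 and 0.784 FPKM in TG. TG 1 and TG 2 were far above the narrow CTR range and TG 3 below it. The log2 difference was 0.78 (limma adjusted p = 0.831), 1.46 without TG 3 (limma unadjusted p = 0.00031, adjusted p = 0.0824) and 0.23 without TG 1 (limma unadjusted p = 0.588). Over the 22 settings it lay between 0.22 and 1.46, with adjusted p between 0.0824 and 0.999. Pseudogenes named after *Pcna*, *Dnmt3l* and *Tdg* are annotated, and reads could be shared with them. Of 7 readers of methylated CpG, 6 had a positive difference (median 0.13), or 5 without TG 3 (median 0.01), and 0 passed the unadjusted threshold, with *Mbd1* at 4.01 ± 0.433 and 5.01 ± 0.578 FPKM (0.29, limma adjusted p = 0.826) and *Zbtb4* at a log2 difference of 0.30, or 0.13 without TG 3.

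Of 13 partners of DNA demethylation, 12 were tested, 6 with a positive difference and a median of -0.05, or 2 and -0.23 without TG 3. At the unadjusted threshold 0 were higher and 1 was lower. This was *Tdg*, the glycosylase that excises the products of TET oxidation, at 5.38, 2.15, 3.12 and 4.53 FPKM in CTR and 1.85, 1.203 and 2.44 FPKM in TG. TG was lower in 11 of 12 pairs, with a log2 difference of -0.85 ± 0.31 (SE, limma unadjusted p = 0.0234, adjusted p = 0.689), and -1.04 without TG 3. *Cxxc5* was at 0.768 ± 0.221 FPKM (SD, n = 4) and 1.37 ± 0.460 FPKM (SD, n = 3), a difference of 0.55 (limma adjusted p = 0.764, and 0.37 without TG 3), and *Apex1*, an endonuclease of base excision repair, differed by -0.30 (limma adjusted p = 0.826).

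Of 9 other PRC2 subunits 8 were tested, with a median of -0.03 (-0.09 without TG 3), 3 positive differences and 0 past the unadjusted threshold. *Eed*, the core subunit that binds the mark, was at 17.5 ± 3.58 FPKM (SD, n = 4) and 15.2 ± 3.85 FPKM (SD, n = 3), a difference of -0.21 (limma adjusted p = 0.918). *Ezh1* was at 4.70 ± 0.363 and 5.39 ± 1.71 FPKM (0.14, limma adjusted p = 0.949), with -0.08 without TG 3. *Rbbp7*, a histone-binding subunit, was lower in TG in 12 of 12 pairs, at 53.0 ± 4.32 and 44.6 ± 5.41 FPKM (-0.25, limma adjusted p = 0.838), the kind of separation found in 2.23% of tested genes. *Phf1* differed by 0.52 (limma adjusted p = 0.795), and by 0.30 without TG 3.

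All 20 other PRC1 subunits were tested, 12 with a positive difference, with a median of 0.02 and 0 past the unadjusted threshold. Without TG 3, 6 were positive, the median was -0.16 and 1 (*Yaf2*) was lower at that threshold. The catalytic subunit *Rnf2* was at 6.97 ± 1.36 FPKM (SD, n = 4) and 7.71 ± 2.85 FPKM (SD, n = 3), and *Pcgf2* at 2.92 ± 0.563 and 3.40 ± 1.09 FPKM, with differences of 0.09 and 0.17 (-0.14 and 0.28 without TG 3). *Yaf2* was at 8.66 ± 1.87 and 6.12 ± 1.31 FPKM (-0.47, limma unadjusted p = 0.0552, adjusted p = 0.753), and it differed by -0.61 without TG 3 (limma unadjusted p = 0.0225), while *Pcgf6* differed by -0.23. Of 7 enzymes that remove Polycomb marks, 6 had a positive difference, with a median of 0.09 (2 and -0.01 without TG 3) and 0 past the unadjusted threshold. *Kdm6b*, a demethylase of the PRC2 mark, was at 6.21 ± 1.99 and 8.33 ± 1.37 FPKM (0.44, limma adjusted p = 0.831), and *Asxl1* and *Asxl2*, cofactors of a deubiquitinase, differed by 0.09 and 0.13 (0.00 and -0.04 without TG 3).

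**Figure D5:**
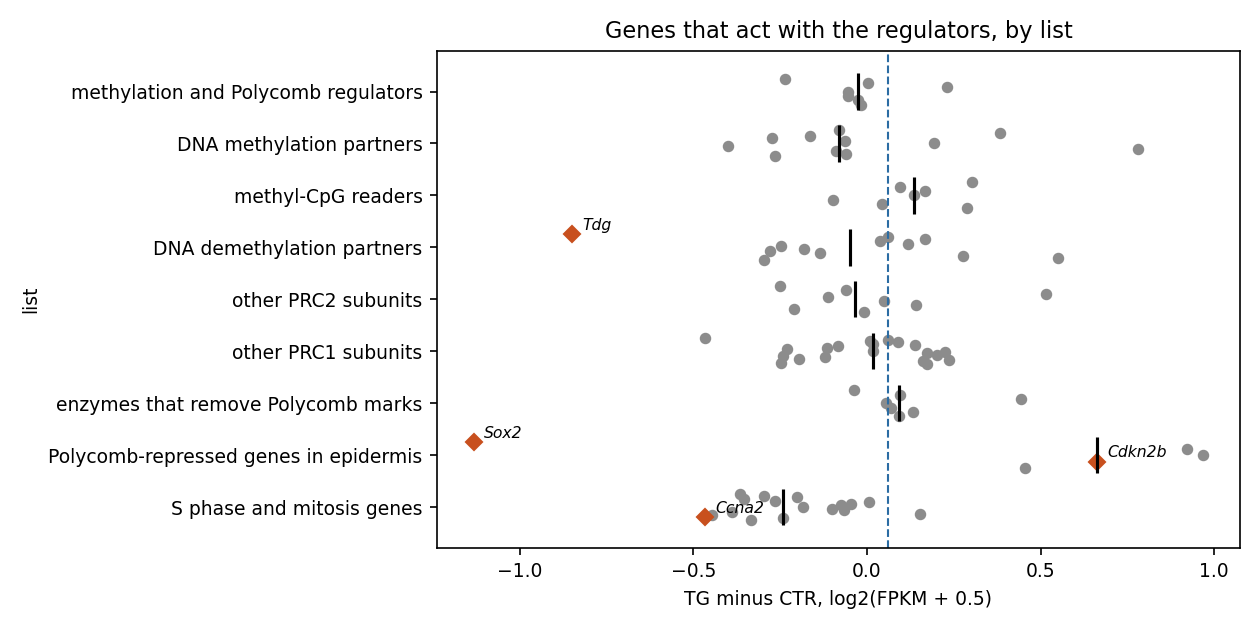
Log2 difference between TG and CTR papillomas for each tested gene of the lists, with the list median as a black bar and the median over all tested genes (0.06) as a dashed line. Diamonds mark the 4 genes past an unadjusted limma p of 0.05 (*Tdg*, *Sox2*, *Cdkn2b*, *Ccna2*), none of which passed the adjusted threshold, and the regulators lie between -0.23 and 0.23.

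Target genes were examined as well. Of 8 genes known to be silenced by Polycomb in epidermis 5 were tested, with a median of 0.66, 4 positive differences, and at the unadjusted threshold 1 higher and 1 lower. *Krt8* reached the minimum only through TG 3. Without that papilloma 4 genes were tested, 2 of them positive, with a median of 0.18, and 0 were higher and 1 lower at that threshold. *Sox2*, a Merkel cell and progenitor factor, was at 25.3, 14.1, 17.9 and 18.2 FPKM in CTR and at 7.18, 5.28 and 14.1 FPKM in TG. Every TG value was below every CTR value, as in 2.23% of tested genes, although TG 3 came close to CTR 2. The log2 difference was -1.13 ± 0.32 (SE, limma unadjusted p = 0.00635, adjusted p = 0.587, exact permutation p = 0.0286), and it passed the adjusted threshold under sample quality weights only (-1.59, limma adjusted p = 0.0320, range over the 22 settings 0.0320 to 0.999). Without TG 3 it was -1.51. *Cdkn2b*, a cell cycle inhibitor, was at 4.83, 10.01, 7.69 and 9.04 FPKM in CTR and 11.99, 9.03 and 17.4 FPKM in TG, with a difference of 0.66 ± 0.29 (SE, limma unadjusted p = 0.0474, adjusted p = 0.729). TG 3 had the highest value, and without it the difference was 0.42 (limma unadjusted p = 0.174). *Cdkn2a*, at the same locus, was at 5.85, 25.4, 36.6 and 12.3 FPKM in CTR and 32.1, 14.6 and 24.0 FPKM in TG. Its groups overlapped widely (log2 difference 0.46, limma adjusted p = 0.928). *Krt8*, a keratin of simple epithelia and Merkel cells, was at 8.27 FPKM in TG 3 and no higher than 0.672 FPKM elsewhere. Of 12 germline genes known to be silenced by DNA methylation, 4 (*Mael*, *Asz1*, *Stk31* and *Slc25a31*) were listed at 0 in all 7 papillomas and 0 exceeded 0.5 FPKM in any, the highest value being 0.408 FPKM for *Dpep3* in TG 1. Finally, of the 17 S phase and mitosis genes 2 had a positive difference, with a median of -0.24 (0 and -0.37 without TG 3), and 1 was lower at the unadjusted threshold. This was *Ccna2*, at 20.7 ± 3.33 FPKM (SD, n = 4) and 14.8 ± 2.25 FPKM (SD, n = 3), with a difference of -0.47 (limma unadjusted p = 0.0315, adjusted p = 0.702), followed by *Ccnb1* at -0.45 and *Cdk1* at -0.39.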

How the data were processed

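PolyA+ RNA from papillomas of 4 CTR and 3 TG mice was made into stranded libraries and sequenced as single reads. The authors used TopHat 2.0.4 (with Bowtie 0.12.7 and Samtools 0.1.16) for alignment to GRCm38/mm10, and Cufflinks 1.3.0 for abundance in each papilloma, per the labels and methods. They deposited FPKM values for 23746 entries per papilloma, each with an interval and a status. FPKM divides fragments by transcript length and by mapped fragments of the library, so RNA from other cells lowers the values of the rest. Whether counting used strand is not given in the sources used here. Entries of 1 symbol were summed (240 symbols), and symbols with a failed estimate in any papilloma (162) were left out of the fit. The intervals implied 10074859 to 15710562 reads, an approximate depth, since 67.0% to 68.5% of low values came out within 0.05 of a whole read, and intervals cover counting error only. Groups and numbers came from the sample titles.

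Values were analyzed as log2(FPKM + 0.5) with limma 3.58.1 in R 4.3.3 (trended variance, genes whose mean reached 0.5 FPKM, Benjamini-Hochberg adjustment), which was tested on simulated data, and with exact permutation tests in Python 3.11.15 with scipy 1.17.1, numpy 2.4.6 and pandas 2.3.3. Plots were drawn with matplotlib 3.10.9. A fold change on this scale understates the change of low genes. The alternatives numbered 21: pseudocounts, filters, scalings, limma settings, sample quality weights, a replicate block, library depth and leaving out each papilloma. Removing group means from the S phase correlations was added after seeing the data. The named genes were the 10 regulators, *Eed*, *Ezh1*, *Rnf2*, *Pcgf2* and *Cdkn2a*, the 3 genes of each list with the smallest unadjusted p, and the 3 genes most correlated with *Dnmt1*, *Tet2* and *Ezh2*. Of these, 2 are not reported here. The regulators were picked by name, not by a threshold on their values, but they, the lists and the tests were chosen with earlier results of these data known. Same-numbered CTR and TG papillomas deviated from their group means with correlations of -0.19, 0.04 and -0.15, so the numbers were not treated as pairs. Promoter windows were taken from RefSeq (GRCm38.p6), and gene positions from the files and GENCODE.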

Additional observations from a re-analysis of the deposited data

Results flagged for a closer look

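Of 16 gap tests on groups of 4 CTR papillomas, 2 found the most extreme papilloma far from the rest, where chance alone would mark about 5% of groups. For *Dnmt3a*, CTR 4 at 2.03 FPKM was separated from the other 3, at 1.59 to 1.64 FPKM, by a gap of 0.885 of the group's range, above Dixon's critical value for 4 samples. For the ratio of *Tet3* to *Tet2*, CTR 3 at 1.09 (log2) was separated from the other 3, at 1.42 to 1.47, by 0.859 of the range.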

How the results depend on the processing

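The number of regulators called was 0 under all 21 alternatives, and *Uhrf1* and *Tet2* kept their direction (-0.50 to -0.12 and 0.09 to 0.44 on the log2 scale). Of all genes, sample quality weights called 49 higher and 36 lower, among them 1 of the Polycomb-repressed list (*Sox2*), and the lower-depth papillomas (without CTR 3 and TG 1) called 1 higher. Leaving out single papillomas gave 0 to 9 higher and 0 to 8 lower (9 and 8 without TG 3, 2 higher without TG 1, 1 higher without CTR 3). Differences near 0 changed sign. In the lower-depth papillomas these were *Dnmt3a* (0.041), *Ezh2* (0.084), *Suz12* (0.091), *Bmi1* (0.091) and the ratio of *Bmi1* to *Pcgf2* (0.042). With the replicate block they were *Dnmt3a* (0.041) and *Bmi1* (0.056), and the block changed no call. *Bmi1* was 0.017 with depth as covariate, and *Tet3* was -0.057, -0.080 and -0.025 with upper-quartile scaling, quantile normalization and quality weights. Leaving out single papillomas gave -0.17 to 0.068 for *Dnmt3a*, -0.10 to 0.12 for *Tet3*, -0.34 to 0.10 for *Ezh2*, -0.25 to 0.18 for *Suz12*, -0.28 to 0.16 for *Bmi1*, -0.12 to 0.10 for the ratio of *Dnmt3b* to *Dnmt3a* -0.56 to 0.21 for that of *Bmi1* to *Pcgf2*, -0.55 to -0.19 for *Uhrf1* to *Dnmt1*, -0.32 to -0.19 for *Tet3* to *Tet2* and -0.26 to -0.094 for *Ezh2* to *Ezh1*. Correlations with S phase genes ranged likewise over 0.28 to 0.919 for *Dnmt1* (exact permutation p = 0.0417 without TG 2), 0.42 to 0.790 for *Tet3* (0.0472 without TG 2), 0.62 to 0.871 for *Ezh2* (0.0389 without TG 3, and r = 0.720 with p = 0.0486 with group means removed), -0.73 to 0.038 for *Dnmt3b*, -0.57 to 0.29 for *Tet1* (-0.027 with a pseudocount of 0.1) and -0.042 to 0.71 for *Tet2*. That of *Uhrf1* was 0.941 in the lower-depth papillomas, where the exact permutation p of 0.05 did not pass. The cause was not tested. Depth limits *Tet1* and *Dnmt3b* most.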
